A study of Mus musculus with 8 samples.

Results

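RNA libraries of cells that had grown together in mixed organoid cultures were compared, 2 of sorted cancer cells (mixed cancer, libraries A04 and A08) and 2 of sorted wild-type cells (mixed WT, libraries A02 and A06), 4 out of 8 libraries in the series. They were chosen by their labels and by no measured value. The other 4 libraries, 2 of pure cancer (A03 and A07) and 2 of pure WT cultures (A01 and A05), serve below as the same comparison in cells that never met. WT organoids came from the small intestine of Rosa26-CreERT2::mT/mG mice (mTmG in the labels, C57BL/6J background in the methods), male and female, 9 to 30 weeks old, whose cells carry membrane tdTomato. Cancer organoids came from the small intestine of male mice (C57BL/6, F6), 7 to 16 weeks old, whose engineered alleles included Villin-CreERT2, Apc fl/fl and Trp53 fl/R172H, and their cells were marked with Dendra2; the Villin promoter restricts the recombinase to intestinal epithelium, and organoids were derived 3 days after a single 2 mg dose of tamoxifen. WT and cancer cells were mixed 2 to 1 and all populations, pure ones included, were sorted live by flow cytometry 3 days later. All groups grew in medium with EGF, Noggin and R-spondin, the last of which raises Wnt signalling. In the study's terms the cancer cells are the winners and the WT cells the losers of this competition, and the comparison asks which differences between them exist inside the shared culture. The 2 populations differ in genotype, tamoxifen history, donor mice and fluorescent label at once, and these cannot be told apart. The labels do not say which wells, mice or organoid lines the 2 libraries of a group came from, so all p-values below measure the spread between these libraries, which may be technical.

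The small intestinal epithelium is renewed from crypt stem cells that depend on Wnt signals. APC is part of the complex that degrades beta-catenin, and when it is lost beta-catenin accumulates, joins TCF/LEF factors on DNA and switches on target genes, among them genes such as Axin2, Nkd1 and Notum whose products damp the same pathway. Stem cell progeny mature into absorptive enterocytes or into secretory goblet, Paneth, enteroendocrine and tuft cells, under transcription factors that include HNF4A, CDX1 and CDX2. Injured or fetal epithelium instead carries markers such as Ly6a (Sca-1) and Anxa1.

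Depth was very uneven. The mixed WT libraries held 73109 reads (A02) and 515035 reads (A06), and the mixed cancer libraries 4733121 reads (A04) and 201137 reads (A08). A single read was worth 13.1 CPM (read counts scaled to the library total and its TMM factor) in A02, 2.27 in A06, 0.196 in A04 and 5.19 in A08. Of 5264 tested genes, 26.1% had no read in A02 and 0.646% had none in A04. The limit that a count of 0 allows, 3 reads over both libraries of a group, was 5.80 CPM for mixed WT and 0.566 CPM for mixed cancer, so an absence could be shown about 1 order of magnitude deeper in cancer cells than in WT cells. Where one group had no read, the difference is given below as a lower bound, the reads of the other group pooled over its libraries against this limit, and a group with 1 to 3 reads gets a ratio together with a 95% interval for counting error. Reads include amplification copies (2.28 reads per molecule barcode in A02 and 6.84 in A04), so these limits and intervals cover counting error only. In the text, values of mixed WT are given as A02 then A06 and values of mixed cancer as A04 then A08. Both groups carried epithelial RNA. Epcam, Cdh1, Krt8, Krt18, Krt19 and 7 further epithelial genes summed to 6567 and 17007 CPM in mixed WT and to 6488 and 6028 CPM in mixed cancer. Counts existed for only 2 of 7 fibroblast and 2 of 6 immune markers. These summed to at most 2.54 CPM and at most 25.9 CPM in any mixed library, which says little about other cell types.

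At an adjusted p under 0.05 (edgeR quasi-likelihood test, Benjamini-Hochberg over all tested genes), 338 of 5264 genes differed between mixed cancer and mixed WT: 106 (2.01%) were higher and 232 (4.41%) lower in cancer. The values of the 2 groups did not overlap for 106 of the 106 and for 210 of the 232, against 26.5% and 18.4% of all tested genes that were apart in these directions. The smallest called difference was 1.34 on the log2 scale among the higher genes and 1.53 in size among the lower ones. At an unadjusted p under 0.05 there were 418 higher and 446 lower genes. Lower calls reached to lower levels than higher calls: 69 tested genes had no read in either mixed WT library and 26 of them (37.7%) were called, all with a mean of at least 37.5 CPM in mixed cancer, whereas 29 of 33 genes (87.9%) without a read in either mixed cancer library were called, from 9.95 CPM upward. Without A04, 65 genes were higher and 102 lower; without A06, 87 and 133; without A02, 97 and 285. With A04 thinned to the depth of A08 the counts were 86 and 160.

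**Figure D1:**
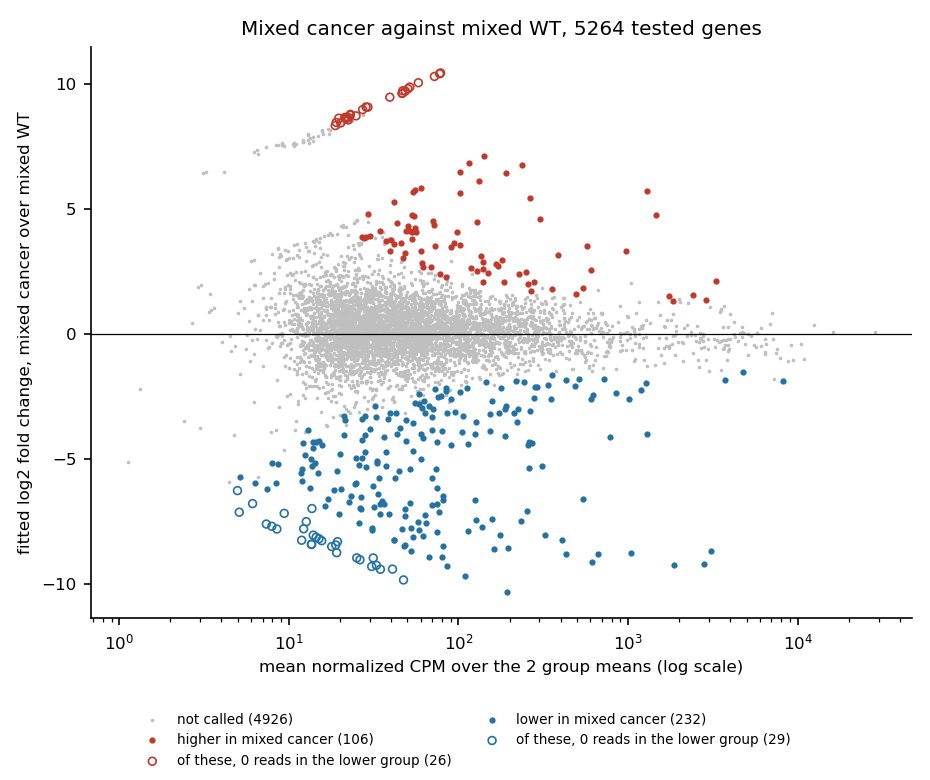
Fitted log2 fold change of mixed cancer over mixed WT (vertical axis) against mean normalized CPM (horizontal axis, log scale) for 5264 genes; red and blue points are the 106 higher and 232 lower genes, and open circles the 26 and 29 of these without a read in the lower group, whose fitted values are no measure of size. Called genes of low level lie mostly below 0.

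Most tested genes of mature enterocytes fell in cancer cells. Of 15 tested enterocyte markers, 11 fell, none rose (background 4.41% lower and 2.01% higher), and their log2 fold changes had a median of -5.53, against 0.12 over all tested genes. Prap1, which encodes a secreted acidic protein of enterocytes (chr7:140093395-140097200, plus strand, GRCm38), stood at 4260.2 and 3231 CPM in mixed WT and at 6.26 and 5.19 CPM in mixed cancer. Its log2 fold change was -9.23 ± 0.68 (SE), with an adjusted p of 2.79e-09. Alpi, the intestinal alkaline phosphatase of the brush border, stood at 799.6 and 918 CPM in mixed WT and at 1.96 and 0 CPM in mixed cancer (log2 fold change -8.80 ± 0.72, adjusted p = 1.23e-08). Both WT libraries were above both cancer libraries for each of these genes, as for 210 of the 232 genes called lower and 18.4% of all tested genes. Apoa1, the main protein of high-density lipoprotein, was seen in 50 mixed WT reads and in 1 mixed cancer read, a ratio of 512 (95% counting interval 87.8 to 20631, WT over cancer). Slc5a1, the glucose transporter SGLT1, had 32 reads in mixed WT and none in mixed cancer and was at least 109-fold lower there, a call lost without A04 (adjusted p = 0.103). Fabp1, a fatty acid binding protein, was uneven within WT, at 210 CPM in A02 and 6.80 CPM in A06, with 1 read in mixed cancer (adjusted p = 0.00247); this call was lost without A02 and without A04 (largest adjusted p over the alternatives 0.129). Without A04, 4 of 17 tested enterocyte markers were called lower, and with A04 thinned 8 of 12.

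Secretory cell markers fell with the enterocyte genes. Among 9 tested goblet markers 5 fell and none rose (background 4.41% lower and 2.01% higher). Their median was -5.90 (-5.20 with the gene at 0 reads set to its bound). Zg16, a lectin-like protein of the goblet cell granule, had the largest fitted change of the whole comparison among genes with at least 10 reads in each WT library, with 43 and 94 reads in mixed WT and 1 and 0 reads in mixed cancer (ratio 1403, interval 248 to 55834). Tff3, the trefoil peptide secreted with intestinal mucus, stood at 1403 and 2730.0 CPM in mixed WT and at 3.33 and 15.6 CPM in mixed cancer (-8.77 ± 0.71, adjusted p = 1.23e-08). The protein disulfide isomerase gene Agr2 stood at 236 and 394 CPM against 1.96 and 0 CPM (-7.40 ± 0.84). Fcgbp, a component of mucus, stood at 118 and 134 CPM against 0.783 and 0 CPM (-7.24 ± 0.96), although 34.0% of the 50-base windows at the 3′ end of Fcgbp are shared with 9530053A07Rik. Klk1, a kallikrein protease, overlapped between the groups, at 0 and 34.0 CPM in mixed WT against 0.587 and 0 CPM in mixed cancer (adjusted p = 0.0155), and its direction turned without A06.

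Of 9 enteroendocrine markers 7 fell and none rose (background 4.41% lower and 2.01% higher). Their median was -6.95 (-6.63 with the genes at 0 reads at their bounds). The hormone gene Cck stood at 288 and 360.2 CPM in mixed WT and at 0.783 and 0 CPM in mixed cancer (-8.60 ± 0.90, adjusted p = 7.73e-07). Gip, which encodes the incretin GIP, and Tac1, which encodes substance P, had 22 and 29 reads in mixed WT and none in mixed cancer, so that they were at least 75.1-fold and 99.0-fold lower. Chgb, a granin of secretory granules, had 50 reads in mixed WT against 2 in mixed cancer, a ratio of 256 (interval 67.3 to 2173). Ghrl, the ghrelin gene, had 20 reads against 1 (adjusted p = 0.0051; lost without A04, with A04 thinned and with DESeq2 on 8 libraries). These 5 were named because they were called, and all but Cck rest on at most 50 reads in WT cells. Without A04, which leaves A08 alone in mixed cancer, most calls of this list were lost, among them Gip and Tac1.

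Paneth cell markers split. Of 6 tested genes 5 fell and 1 rose (background 4.41% lower and 2.01% higher). Those that fell were Reg4, a C-type lectin (-7.88 ± 0.88), Ang4, an antimicrobial angiogenin (-7.70 ± 0.84), Lyz1, lysozyme (-6.63 ± 0.79), Itln1, intelectin (-5.27 ± 0.61), and Pla2g2a (-3.55 ± 0.72). Pla2g2a, a secreted phospholipase gene annotated as a polymorphic pseudogene, was lost without A06. Lyz1 shares 17.7% of its 3′ windows with Lyz2. Mmp7, the metalloproteinase that activates Paneth cell defensins and also a Wnt target, went the other way, at 78.6 and 74.8 CPM in mixed WT and 523 and 861 CPM in mixed cancer (3.17 ± 0.55, adjusted p = 0.000362). Tuft cell markers were tested for 3 genes, of which none was called, and against the same background so few genes are likely to hold no call. Cd24a stood at 301 and 310.4 CPM against 251 and 218 CPM. Avil, an actin regulator, stood at 39.3 and 9.06 CPM against 109 and 77.8 CPM (edgeR adjusted p = 0.114).

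The transcription factors of intestinal identity were lower in cancer cells as well. Hnf4a stood at 367 and 641 CPM in mixed WT and at 34.0 and 5.19 CPM in mixed cancer (-4.31 ± 0.60, adjusted p = 3.10e-05). Cdx1, a homeobox factor of the intestine, had 57 reads in mixed WT and 4 in mixed cancer (-6.66 ± 1.00, adjusted p = 8.58e-05), and its relative Cdx2 had 32 against 25 reads from libraries of very different depth, which is 52.4 and 63.4 CPM against 4.89 and 0 CPM (-3.80 ± 0.96, adjusted p = 0.0147). Krt8, the keratin of simple epithelia, was the fourth member of the 12 epithelial identity genes to fall, at 3212 and 8498 CPM against 2013 and 1292 CPM (-1.83 ± 0.44, adjusted p = 0.00978). Without A06, 1 of 11 identity genes was called, and the calls of Cdx1, Cdx2 and Krt8 were lost. Cdx2 was also lost without A04, and Krt8 with barcode counts. Epcam, Cdh1 and 6 further genes of the list were not called (background 4.41% lower and 2.01% higher).

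HNF4A binds the letters CAAAGTCCA and close variants. In the promoter windows of RefSeq (GRCm38.p6), which span the start of each gene, CAAAGTCCA or CAAAGTTCA was found on either strand for 2 of the 12 tested enterocyte markers that have a window, Alpi and Apoa4, and for 0.995% of all 27025 genes with a window. Both stretches are shown because Alpi and Apoa4 fell together with Hnf4a; they are written 5′ to 3′ on the strand of the gene with the matched letters in capitals, at chr1:87101607-87101635 (minus strand) and chr9:46240652-46240681 (plus strand).
Alpi: tagccagggaCAAAGTCCAtctctgattt
Apoa4: tgttctgagaCAAAGTTCAggttggtggca
A match describes the letters of a window and shows no binding in these cells.

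**Figure D2:**
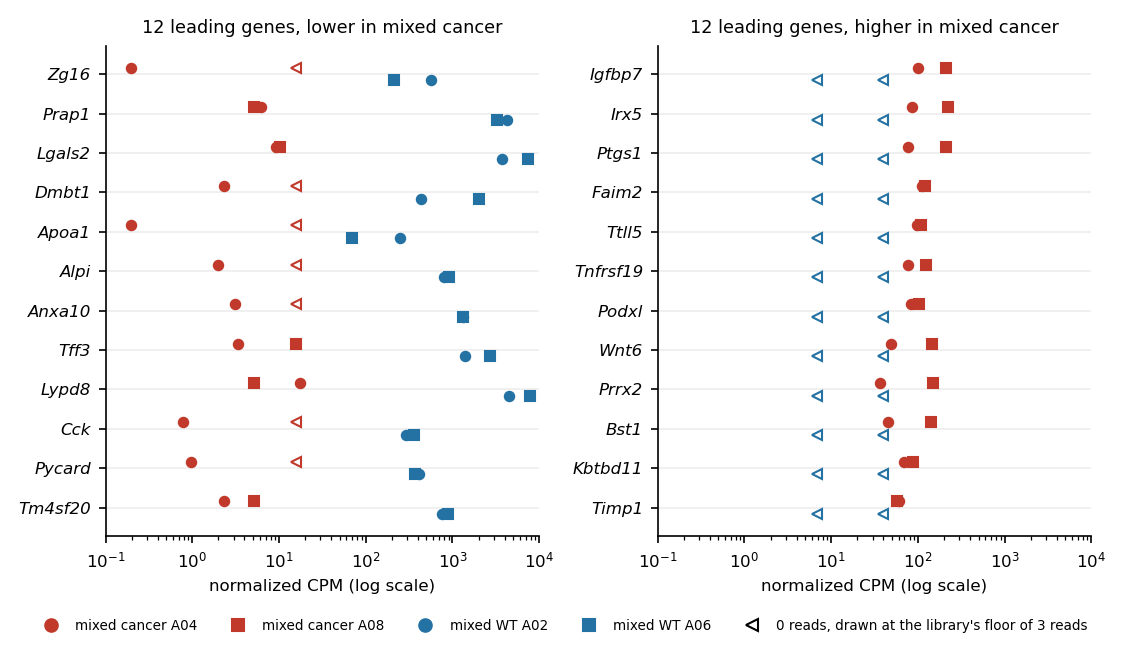
Normalized CPM (log scale) in each mixed library for the 12 leading genes of each direction; circles and squares are the 2 libraries of a group, and open triangles mark 0 reads, drawn at that library's limit of 3 reads. On the left both WT libraries lie above both cancer libraries for every gene; on the right both WT libraries are at 0 reads, and the limit of A02 (39.3 CPM) lies close to or above the lower cancer values for Prrx2, Bst1 and Wnt6.

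The remaining leading lower genes carried other functions. Lgals2 (galectin 2, a sugar-binding protein of the gut lining) stood at 3762 and 7426 CPM in mixed WT and at 9.20 and 10.4 CPM in mixed cancer (-9.21 ± 0.64, adjusted p = 2.20e-09). Lypd8, a membrane-anchored protein that keeps bacteria off the epithelium, was the most abundant of the 12 in WT cells, at 4457 and 7800.3 CPM against 17.6 and 5.19 CPM (-8.66 ± 0.62). Dmbt1, a secreted scavenger receptor of mucosal defence, differed more within WT, at 433 and 2003 CPM, than the other leading genes of this direction, and stood at 2.35 and 0 CPM in cancer cells (-9.10 ± 0.84). Anxa10, an annexin, was nearly equal in the WT libraries, at 1337 and 1312 CPM, and at 3.13 and 0 CPM in cancer cells (-8.80 ± 0.72). Pycard, the inflammasome adaptor ASC, had 195 reads in mixed WT and 5 in mixed cancer (-8.55 ± 0.82), and Tm4sf20, a small membrane protein with 4 spans, had 445 against 13 (-8.25 ± 0.71). All 12 leading lower genes were called under each of the 19 alternative fits.

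All 12 leading higher genes had no read in either mixed WT library. Igfbp7, a secreted protein that binds insulin-like growth factors (chr5:77349240-77408041, minus strand), and Irx5, an Iroquois homeobox factor (chr8:92357625-92376286, plus strand), had the largest fitted changes. Igfbp7 stood at 101 and 213 CPM in mixed cancer, at least 18.2-fold higher than in mixed WT, from 517 and 41 reads that carried 143 and 21 different molecule barcodes. Irx5 stood at 86.5 and 223 CPM, at least 15.8-fold higher. Faim2, an inhibitor of Fas-induced death, was at least 19.5-fold higher, and Ptgs1, which encodes cyclooxygenase 1, stood at 75.9 and 213 CPM. Bounds of the other 9 ran from 7.00-fold for the homeobox gene Prrx2 to 16.9-fold for Ttll5, a tubulin-modifying enzyme, and included the Wnt ligand gene Wnt6 (9.08-fold), the sialomucin gene Podxl (14.6-fold), Timp1, an inhibitor of metalloproteinases (10.3-fold), Bst1 (CD157, 8.46-fold) and Kbtbd11 (12.1-fold). These bounds pool the reads of both cancer libraries and so follow A04, the deeper one; Prrx2 stood at 36.4 CPM there and at 150.4 CPM in A08, Bst1 at 45.6 and 140.1 CPM, and Wnt6 at 49.1 and 145 CPM. Without A06, which leaves A02 as the lone mixed WT library, 11 of the 12 were no longer called (largest adjusted p between 0.0602 and 0.188); Irx5 was called in every fit. Prrx2 was also lost with DESeq2 on 8 libraries, Bst1 with a minimum count of 50 and Timp1 without A04.

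Several Wnt feedback genes differed. Of 5 tested members of the list of feedback genes and secreted Wnt inhibitors (9 of 17 in the table), 3 rose and none fell (background 2.01% and 4.41%), and all 5 values were positive, with 3.57 as their median. Nkd1, which binds Dishevelled and damps the pathway (chr8:88521354-88594884, plus strand), stood at 13.1 and 0 CPM in mixed WT, the former being 1 read, and at 205 and 192 CPM in mixed cancer; the ratio was 106 (interval 19.0 to 4195) and the adjusted p 0.00034. Axin2, the scaffold of the degradation complex (chr11:108920349-108950783, plus strand), stood at 0 and 20.4 CPM in mixed WT and at 115 and 275 CPM in mixed cancer (3.57 ± 0.80, adjusted p = 0.0058). Notum, a secreted enzyme that inactivates Wnt ligands (chr11:120653788-120661175, minus strand), had 2 reads in mixed WT, both in A06, and 363 and 19 reads in mixed cancer, a ratio of 18.6 (interval 5.13 to 155; adjusted p = 0.0184). For each of the 3 both cancer libraries were above both WT libraries, as for all 106 genes called higher and 26.5% of all tested genes. Nkd1 and Axin2 were called under all 19 alternative fits, and Notum was lost without A06 (adjusted p = 0.133). Axin2 and Notum overlap annotated antisense transcripts by exons.

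Among 12 other Wnt targets, Tnfrsf19 and Mmp7 rose, none fell (background 2.01% higher and 4.41% lower), and the median was 0.44. Tnfrsf19 (Troy), a receptor of Wnt-active crypt cells, had no read in mixed WT and stood at 77.1 and 124 CPM in mixed cancer, at least 13.6-fold higher. Most members were not called; Ccnd1, cyclin D1, stood at 184 and 179 CPM in mixed WT and at 433 and 425 CPM in mixed cancer (1.25 ± 0.49, adjusted p = 0.158). TCF/LEF factors bind the core letters CTTTGAT or CTTTGTT. These letters, on either strand, occur in a promoter window of 3 of the 8 tested other Wnt targets with a window (Tnfrsf19, Mmp7 and Tgif1), of 1 of 4 feedback genes (Sp5) and of 10.6% of all genes. The stretches of the 2 genes that rose are shown, with the reverse complement of the core in capitals, at chr14:61038172-61038199 (minus strand) and chr9:7692091-7692111 (plus strand).
Tnfrsf19: tgaatgggggATCAAAGtgacaaactag
Mmp7: aacATCAAAGtagctctgaga

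No tested stem cell marker was called higher. Of 10 tested genes, 3 fell, none rose (background 4.41% lower and 2.01% higher) and 7 were not called. The median was -1.79. Smoc2, a matricellular protein of the crypt base, stood at 52.4 and 81.6 CPM in mixed WT and at 0.783 and 0 CPM in mixed cancer (-6.40 ± 0.96, adjusted p = 8.58e-05). Hopx, a homeodomain protein associated with slow-cycling stem cells, was even within each group, at 170.4 and 179 CPM against 8.61 and 5.19 CPM (-4.43 ± 0.66, adjusted p = 6.50e-05). Gkn3 overlapped between the groups, at 0 and 92.9 CPM in mixed WT and 4.70 and 10.4 CPM in mixed cancer (adjusted p = 0.041), and its direction turned without A06.

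Of 8 tested genes normally found in stomach and foregut epithelium, 4 rose and 1 fell (background 2.01% higher and 4.41% lower). Krt4, a keratin of stratified foregut epithelium, stood at 65.5 and 40.8 CPM in mixed WT and at 2836 and 2225 CPM in mixed cancer (5.72 ± 0.58, adjusted p = 3.35e-07), the smallest adjusted p of all higher genes named here. Tff1, a gastric trefoil peptide, stood at 91.8 and 233 CPM against 1211 and 866 CPM (2.56 ± 0.49, adjusted p = 0.00106; lost with barcode counts). Aqp5, a water channel of glands, and Tff2, a second gastric trefoil peptide, had 2 reads each in mixed WT; the ratios were 77.7 (interval 21.5 to 643) and 30.4 (interval 8.37 to 251). Anxa10, also typical of gastric epithelium, was the 1 member that fell, with the values given above.

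Fetal-like and repair markers moved in both directions. Of 25 tested genes, 4 rose and 3 fell (background 2.01% higher and 4.41% lower). In all, 20 of 25 values were positive, and the median was 1.24. Without A02, 2 rose; without A06, 7 rose. Spp1, osteopontin, had 2 reads in mixed WT and stood at 324 and 425 CPM in mixed cancer, a ratio of 84.9 (interval 23.5 to 702). Ly6c1 had 3 reads in mixed WT, a ratio of 15.8 (interval 5.37 to 76.8), and was lost without A06. Ly6a (Sca-1) was abundant on both sides, at 459 and 1969 CPM in mixed WT and at 3511 and 7340.0 CPM in mixed cancer (2.12 ± 0.55, adjusted p = 0.0179); its call was lost without A02 and in the barcode and transcript count tables. Ly6a and Ly6c1 share 3′ windows with each other and with neighbouring Ly6 genes (8.13% and 29.2% of their windows), so reads from these windows may have been discarded or assigned to another member. Krt7, a keratin of ductal epithelium outside the rule for named genes, had a log2 fold change of 1.57. The 3 that fell were Anxa10, the EGF-family ligand gene Areg, at 131 and 159 CPM against 3.91 and 0 CPM (-5.39 ± 1.09, adjusted p = 0.00219), and Il1rn, the interleukin 1 receptor antagonist, at 144 and 317 CPM against 19.2 and 25.9 CPM (-3.50 ± 0.69, adjusted p = 0.00157). Areg was lost at a minimum count of 50, and Il1rn without A04 and without A06.

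Of 14 tested p53 targets, 4 fell and none rose (background 4.41% and 2.01%), with a median of -0.68. Cdkn1a, the cell cycle inhibitor p21, stood at 367 and 834 CPM in mixed WT and at 133 and 62.2 CPM in mixed cancer (-2.57 ± 0.63, adjusted p = 0.0115). Ccng1, cyclin G1, stood at 288 and 99.7 CPM against 17.6 and 20.7 CPM (-3.28 ± 0.75, adjusted p = 0.00662). Perp, a desmosome protein that promotes death, stood at 91.8 and 172 CPM against 30.3 and 10.4 CPM (-2.52 ± 0.72, adjusted p = 0.0352). Gdf15, a stress-induced cytokine, had 34 reads in mixed WT and 25 in the far deeper mixed cancer (-3.98 ± 1.17, adjusted p = 0.0412). In all 4 genes the groups did not overlap, as in 210 of the 232 genes called lower and in 18.4% of all tested genes. The list is carried by few reads: 2 members were called without A02, 1 without A04 and 1 without A06. Gdf15 was also lost without A01 or A05, and Perp without A05 or A08. In the pure comparison none of the 14 was called. The difference between the 2 comparisons was not called for Cdkn1a, Ccng1, Perp or Gdf15 (adjusted p = 0.837, 0.549, 0.56 and 0.94).

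The engineered genes could not be used to check genotype, since the assay reads the 3′ end of a transcript and the alleles alter other parts of the gene. Trp53 stood at 13.1 and 174 CPM in mixed WT and at 67.3 and 46.7 CPM in mixed cancer (-0.93 ± 0.74, adjusted p = 0.604). In pure culture it was called lower in cancer (-2.56 ± 0.77, edgeR adjusted p = 0.0323). There it stood at 178 (A01) and 324 CPM (A05) in WT and at 5.25 (A03) and 71.8 CPM (A07) in cancer. Apc had 2 reads in mixed WT and 22 in mixed cancer and was below the filter. None of the 9 tested MAPK output genes was called, with a median of 0.65. The background was 2.01% higher and 4.41% lower, so a list of this size is likely to hold no call. Ier3, an immediate early gene, stood at 52.4 and 193 CPM against 453 and 316 CPM (1.49 ± 0.65, edgeR adjusted p = 0.232).

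Death, stress and immune lists gave 0 to 2 calls each, against a background of 2.01% higher and 4.41% lower. Of 21 genes of programmed cell death, Pycard and Casp1, both of the inflammasome, fell and none rose, with a median of 0.00. Casp1 rests on 14 reads of A06 and none in A02, A04 or A08, so its mixed groups overlapped. With reads pooled over libraries it was at least 47.8-fold lower in cancer. Its call was lost with DESeq2 on 8 libraries, and 10 of the 19 alternatives did not test it. Pure WT held 67 Casp1 reads. None of the 14 AP-1 and JNK pathway genes was called, with a median of 0.45. Junb stood at 197 and 759 CPM in mixed WT and at 680.4 and 913 CPM in mixed cancer (adjusted p = 0.611), and Jund at 39.3 and 240.1 CPM against 365 and 514 CPM (adjusted p = 0.163). Of 20 interferon-stimulated and antigen presentation genes, 1 rose and 1 fell. Isg20, an exonuclease, had 3 reads in mixed WT, a ratio of 22.1 (interval 7.53 to 107). B2m, the light chain of MHC class I, stood at 589.9 and 1001 CPM against 208 and 259 CPM (-1.80 ± 0.48, adjusted p = 0.0215). Both calls were lost without A04 and without A06, and that of B2m also without A08 (largest adjusted p 0.18 for Isg20 and 0.20 for B2m).

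Genes of growth had mostly positive values in the mixed comparison but were seldom called (background 2.01% higher). The median over all tested genes was 0.12. Of 22 DNA replication genes 19 were positive, with a median of 1.55, and 1 was called, Rrm1, the large subunit of ribonucleotide reductase, with 3 reads in mixed WT (ratio 16.2, interval 5.51 to 78.8, adjusted p = 0.0219; lost without A04, without A06 and with DESeq2 on 4 libraries). Its partner Rrm2 differed as much within groups as between them, at 367 and 99.7 CPM against 240.3 and 67.4 CPM (adjusted p = 0.877). Of 18 mitosis genes 17 were positive, with a median of 1.07, and none was called; Cdk1 stood at 236 and 217 CPM against 709.7 and 327 CPM (1.22 ± 0.51, adjusted p = 0.198). The summed CPM of the mitosis genes was higher in A04 than in A08 (6111 against 3750) and in A02 than in A06 (4549 against 2241), and the groups overlapped. The DNA replication sums overlapped too, at 1494 and 650 CPM in mixed WT against 2360 and 1167 CPM in mixed cancer. Srm, spermidine synthase, was the 1 of 18 ribosome biogenesis and Myc-related genes to rise, at 52.4 and 54.4 CPM against 252 and 202 CPM (2.09 ± 0.57, adjusted p = 0.0263), a call lost without A02, A04 or A06 and in both fits of 4 libraries. Of 17 genes of glycolysis and lactate export 15 were positive, with a median of 0.89; Pgk1, phosphoglycerate kinase, was the 1 to rise, at 1403 and 1797 CPM against 3973 and 4279.5 CPM (1.36 ± 0.38, adjusted p = 0.0276). With barcode counts Pgk1 turned direction (-0.21), and its call was lost with transcript counts, in the edgeR fit of 4 libraries and without any 1 of the mixed libraries. Ldha, lactate dehydrogenase A, stood at 2753 and 2125 CPM against 6006 and 3071 CPM (adjusted p = 0.297). The ribosome biogenesis list had 12 of 18 positive values in mixed culture, with a median of 0.21. In the pure comparison 6 of 22 DNA replication, 13 of 18 mitosis, 4 of 18 ribosome biogenesis and 17 of 17 glycolysis genes were positive. Their medians there were -0.65, 0.45, -0.64 and 0.82. Sex-linked genes were below the filter (0 of 4 tested).

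**Figure D3:**
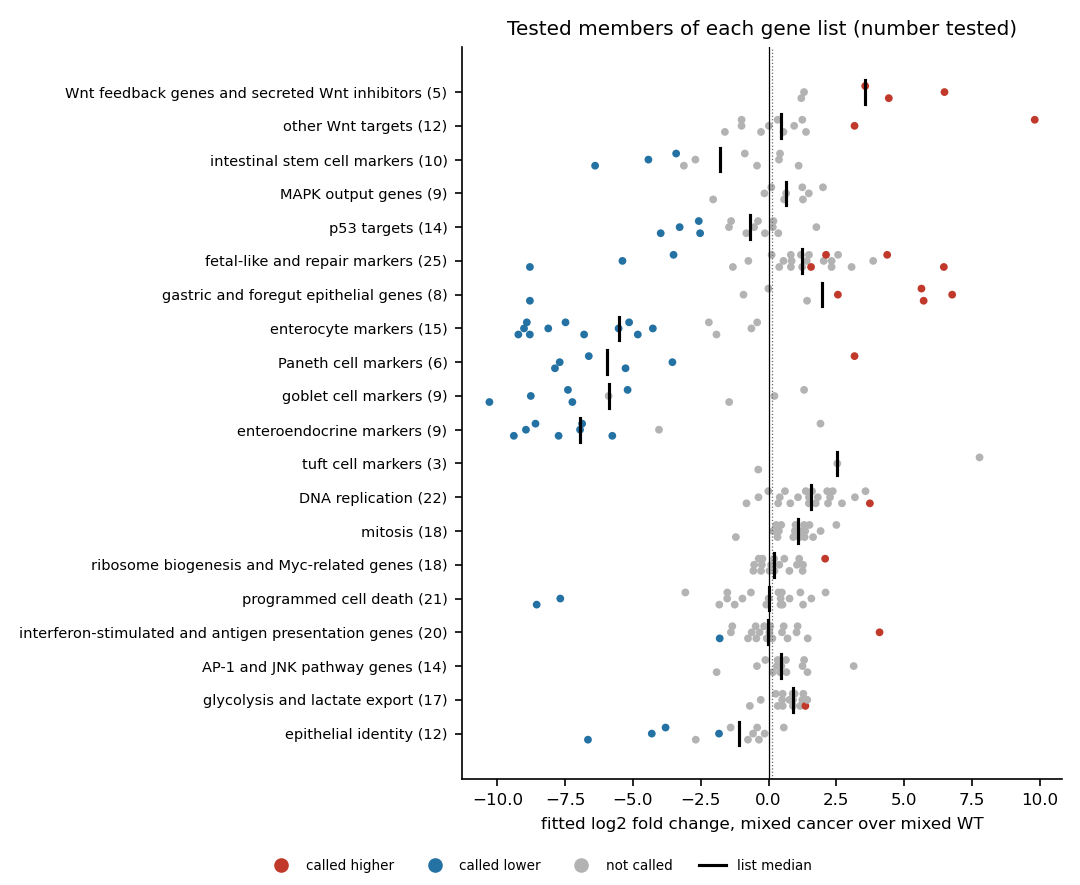
Fitted log2 fold change of mixed cancer over mixed WT for each tested member of the gene lists with at least 3 tested members; coloured points passed the test, the black bar is the list median and the dotted line the median of all tested genes (0.12). Enterocyte, Paneth, goblet and enteroendocrine lists lie far to the left (medians -5.53, -5.95, -5.90 and -6.95), and the Wnt feedback list to the right (3.57).

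The same contrast was then taken between the pure libraries. Both comparisons came from the same fit of all libraries and shared its filter, scaling and estimate of spread. Their calls are therefore not independent. There 524 genes were called, 269 (5.11%) higher and 255 (4.84%) lower in cancer. Of the 106 genes higher in mixed cancer, 77 (72.6%) were also higher in pure cancer, which is 28.6% of the pure list. Of the 232 lower genes, 162 (69.8%) were also lower, 63.5% of the pure list. The sign was the same in 101 of 106 and 229 of 232. The exceptions were Axin2, Chaf1b, Def8, E2f4 and Srm, higher in mixed cancer with a negative value in the pure comparison, and AA467197, Blvrb and Cbr3, the reverse; these 8 were named after their values were seen. Over the 106 genes the median fitted value was 4.12 in mixed and 4.11 in pure cultures, and over the 232 genes -5.39 and -6.20. In the lower mixed group 26 of the 106 and 29 of the 232 had no read. A further 31 and 50 had 1 to 3 reads. The medians therefore do not show that the differences were equal in size. The intestinal differentiation lists were alike in the pure comparison: 11 of 15 enterocyte, 6 of 9 goblet, 8 of 9 enteroendocrine and 5 of 6 Paneth markers fell. Fetal-like markers differed in count, with 20 of 25 called higher in pure cancer and a median of 3.41, against 4 of 25 and 1.24 in mixed culture. Counts of calls depend on depth and spread, and the list as a whole was not tested for a difference between the cultures. Only 4 of all tested genes passed the test of the difference between the comparisons, with Ly6a of this list among them.

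**Figure D4:**
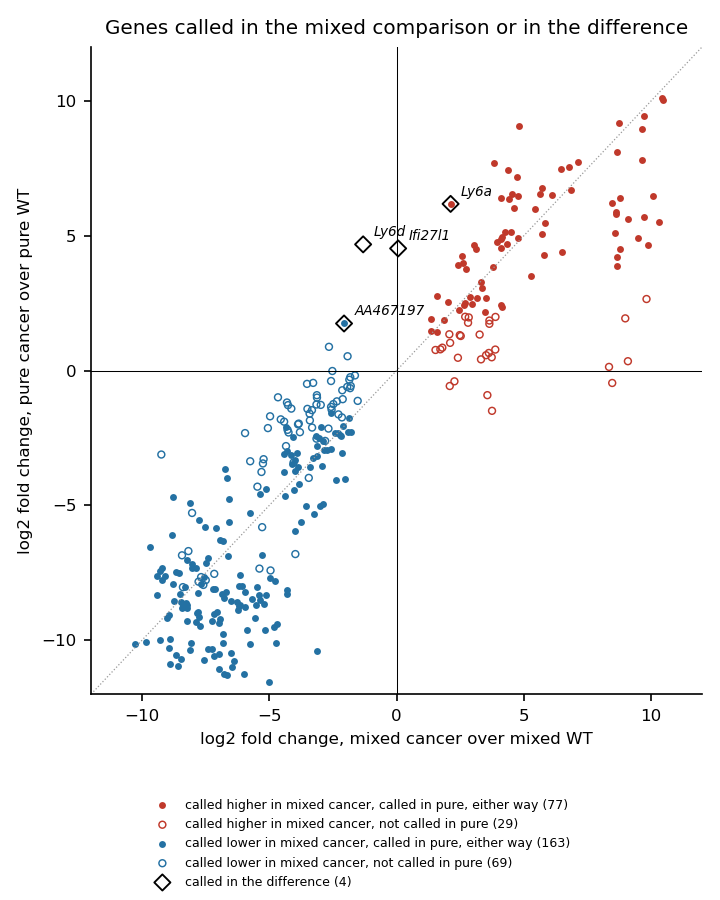
Log2 fold change of cancer over WT in pure culture (vertical axis) against that in mixed culture (horizontal axis) for the 338 genes called in the mixed comparison, with Ly6d and Ifi27l1 added; filled points were also called in pure culture, and diamonds are the 4 genes called in the difference. The column of points at a mixed value above 8 holds genes without a read in mixed WT. Ly6d, Ifi27l1, Ly6a and AA467197 lie above the dotted line of equal change.

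Only 4 genes (0.076%) passed the test of the difference between the 2 comparisons itself, all with a cancer-WT difference that was lower in mixed than in pure culture; 207 genes with a higher and 176 with a lower difference had an unadjusted p under 0.05. Ly6d, a small GPI-anchored surface protein, stood at 7.32 and 3.37 CPM in pure WT, 197 and 369 CPM in mixed WT, 89.6 and 156 CPM in mixed cancer and 142 and 126 CPM in pure cancer. It was high in every library but those of pure WT, and the difference was -5.99 ± 0.86 (adjusted p = 0.00224). Ifi27l1, an interferon-inducible gene, stood at 7.32 and 6.18 CPM in pure WT, 105 and 215 CPM in mixed WT, 170.0 and 187 CPM in mixed cancer and 168 and 147 CPM in pure cancer (-4.47 ± 0.81, adjusted p = 0.0253). Ly6a stood at 114 and 46.7 CPM in pure WT, 459 and 1969 CPM in mixed WT, and 4167 and 7429 CPM in pure cancer, so that its mixed difference of 2.12 compared with a pure one of 6.18 (-4.06 ± 0.78, adjusted p = 0.0386). AA467197, a small protein gene that hosts Mir147 on the same strand, stood at 142 and 71.4 CPM in pure WT, 511 and 1063 CPM in mixed WT, 192 and 192 CPM in mixed cancer and 331 and 380.1 CPM in pure cancer; it fell in mixed cancer by 2.06 ± 0.50 and rose in pure cancer by 1.75 ± 0.49 (difference -3.81 ± 0.70, adjusted p = 0.0253). For each of these 4 genes both mixed WT libraries were above both pure WT libraries. These values entered the test that picked the genes, so their order adds no separate support. Ly6d was called in the difference under each alternative; the other 3 were lost without A04 and without A06, AA467197 and Ifi27l1 also without A05, and Ly6a also in the barcode and transcript count tables and at a minimum count of 50 (largest adjusted p 0.155 for AA467197, 0.178 for Ifi27l1 and 0.439 for Ly6a). Axin2, which had a log2 fold change of 3.57 in mixed and -0.91 in pure culture, did not pass (difference 4.48 ± 1.03, adjusted p = 0.165).

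**Figure D5:**
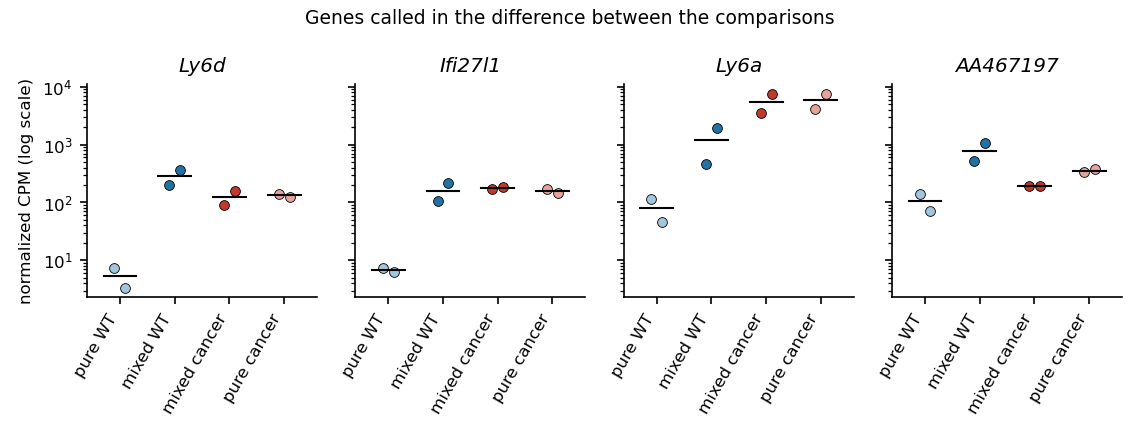
Normalized CPM (log scale) of Ly6d, Ifi27l1, Ly6a and AA467197 in all 8 libraries; points are libraries and bars group means. In each panel the 2 pure WT libraries are the lowest of the 8.

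Genes that had reads on a single side in pure culture were then looked up in the other side of the mixed culture. The 4 genes Gabrp, Irx5, Serpinb6b and Sult1a1 had no read in pure WT and at least 10 in each pure cancer library. In mixed WT they had 3 reads together, 0 in A02 and 3 in A06, which is 2.86% of their mixed cancer level, reads pooled over libraries (exact Poisson 95% interval 0.591% to 8.37%). The 4 gastric and foregut genes that were higher in mixed cancer were not tested between the WT groups. Krt4 averaged 53.2 CPM in mixed WT and 57.1 CPM in pure WT, and Tff1 163 and 74.4 CPM. Tff2 averaged 2.27 and 2.04 CPM, and Aqp5 7.69 and 1.93 CPM. Tff2 and Aqp5 had 2 reads each in mixed WT, too few to give a direction. In the other direction, 316 genes had at least 10 reads in each pure WT library and none in pure cancer, where the limit over both libraries was 5.72 CPM a gene. Pure WT held 3008832 reads and pure cancer 543861, so the numbers of genes found in the 2 directions cannot be compared. Some of the 316 were present in cancer cells. Timeless had 74 reads in mixed cancer and none in mixed WT, Exoc3 had 109 in mixed cancer, and Myo1a had none there. Together the 316 genes summed to 7105 and 10215 CPM in mixed WT and to 909.9 and 788 CPM in mixed cancer. With reads pooled over libraries this was 9.28% of the WT level (interval 9.02% to 9.55%). The intervals of both percentages cover only the counting error of the lower side. They take the level of the other side as exact and leave out the spread between libraries, so they are too narrow. The part of cells sorted to the wrong side in these percentages was not tested, and in sorted bulk RNA fewer cells of a type and less RNA per cell cannot be told apart.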

How the data were processed

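Cells were sorted by fluorescence with doublets and dead cells excluded, and RNA was sequenced by CEL-Seq, a 3′ tag method with molecule barcodes. According to the deposited files and the methods, the authors aligned read 2 to the mm10 RefSeq transcriptome with BWA, discarded reads that mapped to several places, and assigned the rest to genes with featureCounts. The authors deposited raw read counts per gene, barcode counts (different molecule barcodes per gene, which reach at most 256 and so level off for abundant genes) and estimated counts of transcripts; the barcode and estimated counts serve as alternatives, with the estimated counts rounded. A deposited table of the authors' own DESeq2 1.22.2 comparison of mixed and pure WT (means, log2 fold changes, p-values) was not used. Whether strand was used in counting is not given in the sources used here. Of 13420 entries, 2 are not mouse genes: a spike-in (0 reads) and eGFP (1 read in all); both were left out of tests.

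Read counts of all 8 libraries were fitted together in edgeR 4.0.16 (R 4.3.3; 4 groups, filterByExpr at a minimum count of 10, TMM factors, quasi-likelihood F test), with Benjamini-Hochberg adjustment over 5264 genes and a threshold of 0.05. No covariate was used. The number of libraries per group was 2, and total counts ran from 73109 to 4733121, which sets the limits given with the results. Standard errors were derived from the F statistic. Libraries of a group differed beyond sampling noise in every group (chi-square per degree of freedom 4.90 to 13.8). The procedure was tested on simulated data. Positions are from GENCODE vM21 (GRCm38, the build of mm10), and promoter windows from RefSeq.

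Named genes were, per direction, the 12 called genes with the largest change among those with at least 10 reads in both libraries of the higher group, up to 5 called members per list (or the 2 most abundant where fewer than 2 were called), the engineered genes (1 allele of the cancer mice and its gene are not reported here), and every gene called in the difference. The comparison and its gene lists were chosen with earlier results of these data known. The list of endothelial markers had no gene in the table. Of the named genes, 3′ windows were checked for sharing (50 bases, last 500 bases). Alternatives covered the count table, scaling, filters, the libraries in the fit, DESeq2 1.42.0, thresholds, thinning of A04 and leaving out each library.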

Additional observations from a re-analysis of the deposited data

Results flagged for a closer look

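The 4 genes below were picked out because the cancer-WT difference itself differed between mixed and pure culture in 1 fit of all libraries (edgeR, interaction contrast). For Ly6d the difference of the log2 fold changes, mixed minus pure, was -5.99, for Ifi27l1 -4.47, for Ly6a -4.06 and for AA467197 -3.81. Both mixed WT libraries exceeded both pure WT libraries for each gene, but these values were part of the contrast that picked the genes.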

How the results depend on the processing

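No paired analysis was possible because the labels share no replicate number between groups and do not say which mixed WT and mixed cancer libraries came from the same wells. In the mixed comparison (338 calls), a minimum count of 50 gave 151 calls (50 higher, 101 lower), a fit of the 4 libraries 145 lower, DESeq2 on these 4 libraries 216 (68 and 148), and an unadjusted p under 0.05 864 (418 and 446). Leaving out 1 library gave 167 calls (without A04) to 506 (without A07), 65 (without A04) to 175 (without A03) of them higher and 102 (without A04) to 341 (without A07) lower. In the pure comparison the counts were 232 at a minimum count of 50, 1078 unadjusted, and 261 (without A05) to 745 (without A02) with 1 library left out. For the difference they were 23 with barcode counts, 10 with transcript counts, 10 with no filter, 21 with DESeq2 on 8 libraries, 383 unadjusted, and 1 to 32 with 1 library left out. Of the 69 named genes that were called, 3 turned direction: Gkn3 (-4.05 to 5.81 with 1 library left out), Klk1 (-6.84 to 2.70 likewise) and Pgk1 (-0.21 with barcode counts); the cause was not tested. Of the same 69, 30 were called wherever they could be tested and 39 were lost in at least 1 alternative. Among 19 named genes tested and not called, 10 changed sign in a setting without being called.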

Other observations

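Glutathione S-transferase genes, whose products conjugate glutathione to reactive compounds, belonged to no list used above. Those named here were among the genes called lower in mixed cancer, as were 4.41% of all tested genes. How many members of the family were tested was not counted. The genes named were picked after their values were seen and carry no test as a group. Gstm3 had a log2 fold change of -4.41 in mixed and -3.75 in pure culture, Gstm2 of -3.18 and -2.41, and Mgst3 of -2.41 and -2.33. Gstt3 had -3.14 and -10.4. For Gstm1 (-2.23 in mixed culture) and Gstm6 (-2.81) the mixed groups overlapped. Gsta3 had -3.13 in mixed culture and -0.91 in pure culture, where it was not called (adjusted p = 0.367, edgeR); the difference between the cultures was not called for it. Among genes called higher in both cultures, likewise picked afterwards, Lgals1, galectin 1, had 4.51 and 5.14 and Flna, the actin cross-linker filamin A, 2.46 and 2.25.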
